A study of Mus musculus with 8 samples.

Results

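The insulin-like growth factor (IGF) genes examined here are 10 rows of a normalised read count table of whole mouse knee joints, out of 20681 genes in that table. They are 2 ligands (Igf1 and Igf2), 2 receptors (Igf1r and Igf2r) and 6 binding proteins (Igfbp2 to Igfbp7). The members were listed by name, with earlier results of these data known, and each listed name matched exactly 1 row. Each member passed the filter for testing, which asked for 10 or more normalised reads in 4 or more of the 8 libraries and left 14949 genes. Igf2 and Igfbp2 passed with 4 libraries only.

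The study compared 4 libraries labelled control with 4 labelled knockout for Loxl2, which encodes the collagen-crosslinking enzyme lysyl oxidase-like 2. All 8 joints came from mice described as Acan-Cre;Loxl2 fl/fl, in which a recombinase driven by the aggrecan gene acts on loxP-flanked Loxl2 alleles in cells that use that gene, chiefly chondrocytes. The library names are Vehicle_DMM_LOXL2wt for the control group and KO_DMM_LOXL2ko for the knockout group, so every joint carries the tag DMM, the usual short form for surgical destabilisation of the medial meniscus. The control mice were vehicle-treated; what the knockout mice received in its place, and the ages of the mice, are not given in the sources used here. The described genotype is the same in all 8, while the library names tag the groups LOXL2wt and LOXL2ko. The contrast below therefore holds the tagged Loxl2 state and the treatment together. Nothing in the labels says more of how the replicates were taken, so the p-values measure the spread between these samples.

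IGF1 and IGF2 are small secreted hormones related to insulin that promote growth, matrix synthesis and survival in cartilage, bone and muscle. Both act through the tyrosine kinase receptor encoded by Igf1r, while the receptor encoded by Igf2r carries IGF2 to lysosomes and does not signal in that way. The secreted binding proteins hold IGFs in the circulation and in matrix, and proteases free the ligand by cutting them.

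The libraries held 13991000 to 17411617 reads assigned to genes. The targeted gene ran against the labels, since Loxl2 had 282, 349, 1135 and 311 normalised reads in the control replicates, in order of number, and 893, 1468, 960 and 1518 in the replicates labelled knockout. Control replicate 3 stood with the knockout libraries in this check, so some of the results are also given without it, and the groups are named by their labels. Over all genes tested, limma called 23.2% (adjusted p under 0.05). Those with more reads in the libraries labelled knockout made up 11.6%, and those with fewer also 11.6%. A joint contains several tissues, and of the genes in the 10 marker lists used to describe it all but the red cell marker Ahsp were in the table, with no list gene at 0 in every library. Of all list genes, only Matn3, a cartilage marker, was at 0 in any library. In such bulk samples, fewer cells of a type and less RNA per cell cannot be told apart.

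Of the 10 members, limma called 2 higher (Igf1 and Igfbp4) and 0 lower, against 23.2% of all genes called, so the count of calls was near that of the table as a whole. At an unadjusted p under 0.05 limma had 5 members, beside 38.4% of all genes. The edgeR test called the same number as limma, 2 members, while DESeq2 called 4, against 22.2% and 27.6% of all genes. The median log2 difference (libraries labelled knockout minus control) was 0.56 over the 10 members and 0.00 over all genes tested, and 8 members had a difference above 0. The groups did not overlap for 2 members, Igf1 (higher) and Igf2r (lower), beside 25.1% of all genes tested, 11.7% higher and 13.4% lower. Without control replicate 3, limma called 4 members, Igf1, Igfbp4, Igfbp6 and Igfbp7, beside 23.6% of the genes tested in that fit.

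**Figure D1:**
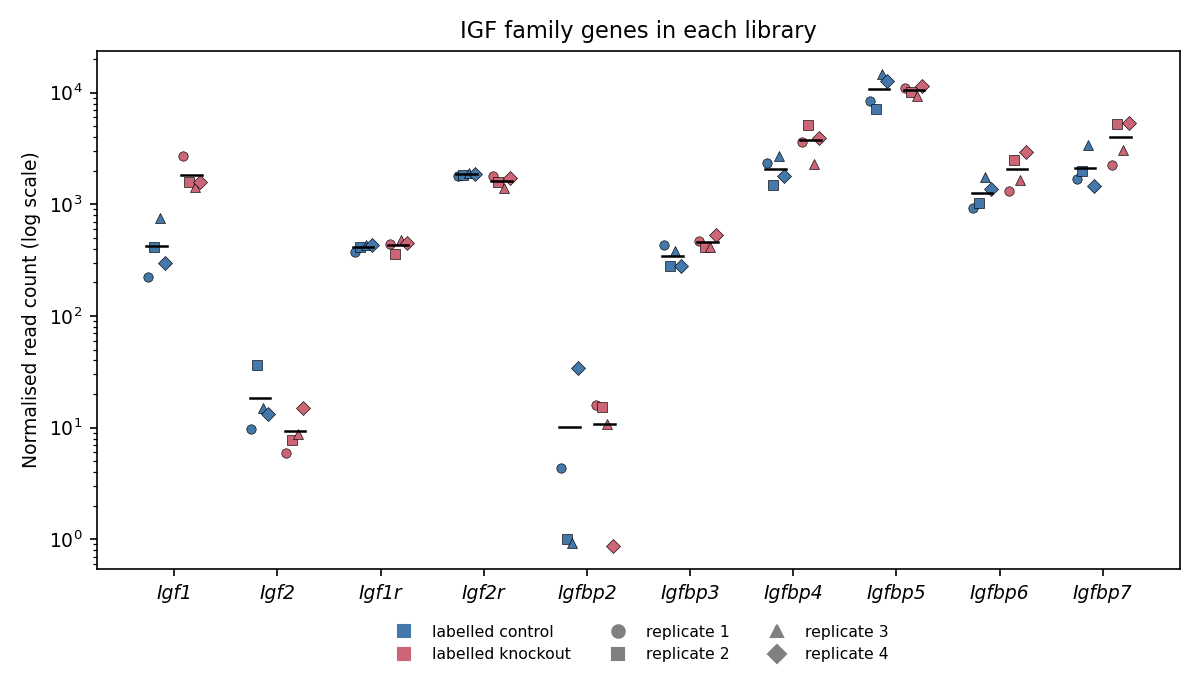
Normalised read count (log scale) of each IGF gene in each of the 8 libraries, with control libraries in blue, libraries labelled knockout in red, a symbol for each replicate number and a black bar at each group mean. The Igf1 points of the groups are apart (at most 755 in the control libraries, at least 1440 in those labelled knockout), while those of Igf1r and Igfbp5 lie at like heights.

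For Igfbp4, Igfbp6 and Igfbp7, the 3 binding protein genes with the largest differences whose 95% intervals lay above 0, the stretch before the start is shown, so that their promoters can be compared. Igfbp3, whose interval also lay above 0, has none of the motifs searched in its window, and that window is not shown. The stretches were taken from RefSeq on GRCm38.p6, the same build as mm10. Each is the 250 bases before a RefSeq start of the gene, read 5′ to 3′ on the gene's strand. Gene positions given elsewhere are from GENCODE, and the Igfbp6 window ends at 102144185, short of its GENCODE start at 102144362. The distances and GC content of Igfbp6 below therefore refer to the RefSeq start. All 10 members had at least 1 entry. Igfbp4 lies at chr11:99040994-99041243 (plus strand), Igfbp6 at chr15:102143936-102144185 (plus strand) and Igfbp7 at chr5:77408046-77408295 (minus strand), and none of these windows overlaps an annotated exon. Capitals mark the TATA motif TATAAA, the CCAAT motif and the GC box GGGCGG on either strand, and no match overlaps another.
Igfbp4: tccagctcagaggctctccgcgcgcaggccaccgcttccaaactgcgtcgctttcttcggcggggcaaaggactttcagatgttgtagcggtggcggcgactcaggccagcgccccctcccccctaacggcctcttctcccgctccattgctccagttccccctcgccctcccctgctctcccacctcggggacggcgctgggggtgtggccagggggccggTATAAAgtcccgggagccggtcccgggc
Igfbp6: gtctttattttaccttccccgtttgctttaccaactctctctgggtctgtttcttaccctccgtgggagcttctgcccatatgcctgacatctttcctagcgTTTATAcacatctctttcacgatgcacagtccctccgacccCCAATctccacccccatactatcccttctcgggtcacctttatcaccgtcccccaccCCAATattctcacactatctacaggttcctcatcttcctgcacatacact
Igfbp7: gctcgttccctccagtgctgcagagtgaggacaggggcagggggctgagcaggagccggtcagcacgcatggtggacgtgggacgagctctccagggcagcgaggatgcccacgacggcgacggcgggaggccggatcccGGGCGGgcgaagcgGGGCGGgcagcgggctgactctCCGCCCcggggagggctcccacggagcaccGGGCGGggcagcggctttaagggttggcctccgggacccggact
These 3 windows differ from one another. Igfbp4 has 1 TATAAA, 28 bases before the start, which 12.4% of all 32851 RefSeq windows of this length hold on either strand. Igfbp6 has TATAAA on the opposite strand, 148 bases before the start, and 2 CCAAT, a motif held by 33.8% of windows. Igfbp7 has neither but 4 matches to GGGCGG, which 32.7% of windows hold. GC content was 69.2% for Igfbp4, 49.6% for Igfbp6 and 74.0% for Igfbp7, beside a median of 52.4% over all windows. The window of Igf1 overlaps an annotated exon of Igf1 itself and is not shown.

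Igf1, the main growth-promoting ligand after birth, rose in the libraries labelled knockout. Its normalised read count was 223, 414, 755 and 299 in the control replicates and 2703, 1587, 1440 and 1588 in those labelled knockout, in order of number. Every library labelled knockout lay above every control library, with control replicate 3 the highest of its group and knockout replicate 1 far above the other libraries of its own. The mean was 423 ± 235 (SD, n = 4) and 1829 ± 586 (SD, n = 4). This is a log2 difference of 2.22 (SE 0.34), or 4.65-fold (limma adjusted p = 0.00462). By size of rise Igf1 ranked 96 among the 14949 genes tested. The call held in each of the 8 fits that left out 1 library, with differences of 1.96 to 2.55 (limma adjusted p at most 0.0169), and without control replicate 3 the difference was 2.55.

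Igf1 (chromosome 10, 87858265 to 87937042, plus strand, mm10) has 8 annotated transcripts, whose reads the gene count adds together. The antisense gene Igf1os lies opposite it and had 2.17 to 14.0 normalised reads in the 8 libraries. The use of strand in the counting is not given in the sources used here, so reads of such opposite pairs were not necessarily kept apart.

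Igf2, the ligand dominant before birth, was near the floor of the data in both groups. It had 9.73, 36.3, 15.0 and 13.1 normalised reads in the control replicates and 5.98, 7.70, 8.70 and 15.0 in those labelled knockout, in order of replicate. The highest library was control replicate 2, and the groups overlapped. The log2 difference was -0.82 with a 95% interval of -1.84 to 0.21 (limma adjusted p = 0.221), from 6 to 36 reads a library. No difference in Igf2 was detected, and the few reads limit this comparison. It lies on chromosome 7 from 142650766 to 142666816 (minus strand), overlapped by Igf2os on the opposite strand.

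The ratio of the ligands was also compared. The log2 ratio of Igf2 to Igf1 within a library, each with 1 added, was -4.38, -3.47, -5.57 and -4.41 in the control replicates and -8.60, -7.51, -7.21 and -6.64 in those labelled knockout. The lowest control library lay above the highest library labelled knockout. The group means differed by -3.03 (two-sided exact permutation p = 0.0286, the smallest that the 70 assignments allow; 0.0571 after Benjamini-Hochberg adjustment over the 2 ratios tested, which misses 0.05). Taken singly, Igf1 differed by 2.22 and Igf2 by -0.82 on the same scale.

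The receptors showed no such rise. Igf1r (chromosome 7, 67952827 to 68233668, plus strand) encodes the receptor that signals for both ligands, and had 375, 414, 433 and 435 normalised reads in the control replicates and 443, 356, 476 and 453 in those labelled knockout. Its groups overlapped, and the log2 difference was 0.05 with a 95% interval of -0.19 to 0.30 (limma adjusted p = 0.753).  The 95% interval of Igf1 ran from 1.46 to 2.98. A difference between the 2 genes' responses was not tested.

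Igf2r (chromosome 17, 12682406 to 12769664, minus strand), the clearance receptor, had 1801, 1833, 1916 and 1870 normalised reads in the control replicates and 1792, 1588, 1412 and 1738 in those labelled knockout. All libraries labelled knockout lay below the control libraries, the nearest by fewer than the spread within either group. Igf2r thus differed by -0.19 on the log2 scale (SE 0.09, limma adjusted p = 0.144), so the gene was not called. With libraries scaled on the genes outside the muscle, red cell and neutrophil lists and the 50 highest genes, the groups overlapped. The antisense Airn lies opposite it and had 93.5 to 149 normalised reads. The log2 ratio of Igf2r to Igf1r was 2.16 ± 0.07 (SD, n = 4) in the control libraries and 1.92 ± 0.25 (SD, n = 4) in those labelled knockout, and the difference of -0.24 did not pass the test (two-sided exact permutation p = 0.114, also after adjustment over the 2 ratios).

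**Figure D2:**
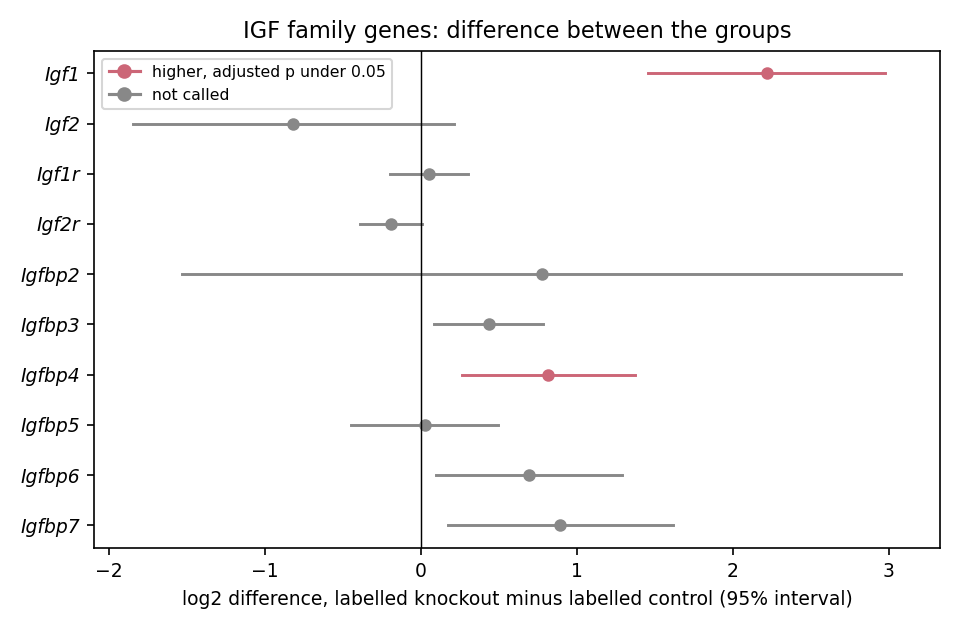
Log2 difference of each IGF gene (libraries labelled knockout minus control, horizontal axis) with its 95% interval from limma, red where higher at an adjusted p under 0.05 and grey where not called. Igf1 at 2.22 and Igfbp4 at 0.82 are called, the intervals of Igf1r and Igfbp5 lie around 0, and that of Igfbp2 is the widest.

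Among the binding proteins, Igfbp4 rose and Igfbp3, Igfbp6 and Igfbp7 had intervals above 0 without being called. Igfbp4 (chromosome 11, 99041244 to 99054392, plus strand) encodes a binding protein that restrains IGF action until it is cut by the protease pappalysin. It had 2330, 1497, 2716 and 1796 normalised reads in the control replicates and 3600, 5149, 2284 and 3891 in those labelled knockout. Knockout replicate 3 lay below control replicates 1 and 3, and the other libraries labelled knockout lay above all control libraries. Igfbp4 was higher by 0.82 on the log2 scale (SE 0.25, 1.76-fold, limma adjusted p = 0.0404). The call was lost without control replicate 1 (limma adjusted p = 0.0530), 2 (0.108) or 4 (0.0950), and without knockout replicate 1 (0.0776), 2 (0.0959) or 4 (0.101). It was kept without control replicate 3 (log2 difference 0.96, limma adjusted p = 0.0272) and without knockout replicate 3 (1.03, 0.0107).

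Igfbp7 (chromosome 5, 77349240 to 77408041, minus strand) encodes a secreted relative with low affinity for IGFs that is abundant in vessels and matrix. It had 1683, 1976, 3370 and 1448 normalised reads in the control replicates and 2244, 5267, 3074 and 5352 in those labelled knockout. Control replicate 3 lay above knockout replicates 1 and 3, and the difference on the log2 scale was 0.90 (SE 0.32, limma adjusted p = 0.0700). It was called without control replicate 3 (log2 difference 1.14, limma adjusted p = 0.0239) and without knockout replicate 1 (1.14, 0.0350). Polr2b, on the opposite strand, had 595 to 769 normalised reads. Of 10 endothelial markers, limma called 0, beside 23.2% of all genes, and 0 were at an unadjusted p under 0.05. Their summed normalised reads were 6147 to 7823 in the control libraries and 4940 to 9906 in those labelled knockout.

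Igfbp6 (chromosome 15, 102144362 to 102149511, plus strand), whose protein prefers IGF2, had 923, 1035, 1752 and 1385 normalised reads in the control replicates and 1326, 2482, 1646 and 2915 in those labelled knockout. The groups overlapped, and knockout replicates 2 and 4 were the highest, as for Igfbp7. For Igfbp6 the difference on the log2 scale was 0.69 (SE 0.27, limma adjusted p = 0.0868). Without control replicate 3 it was 0.86 (limma adjusted p = 0.0449) and without knockout replicate 1 it was 0.89 (0.0437).

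Igfbp3 (chromosome 11, 7206086 to 7213923, minus strand) encodes the main carrier of IGFs in blood. It had 428, 283, 379 and 279 normalised reads in the control replicates and 472, 417, 413 and 528 in those labelled knockout. Control replicate 1 lay above knockout replicates 2 and 3. On the log2 scale Igfbp3 differed by 0.43 (SE 0.16, limma adjusted p = 0.0703), and without control replicate 1 it was 0.55 and called (limma adjusted p = 0.0326). Scaling outside the muscle, red cell and neutrophil lists and the 50 highest genes also gave a call (0.59, limma adjusted p = 0.0346). The groups did not overlap under that scaling.

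Igfbp5 (chromosome 1, 72857932 to 72874884, minus strand), which encodes a binding protein held in bone and muscle matrix, was not called. It had 8396, 7125, 14604 and 12768 normalised reads in the control replicates and 11119, 10060, 9376 and 11438 in those labelled knockout. The libraries labelled knockout all lay within the span of the control libraries. Igfbp5 had a log2 difference of 0.03, with a 95% interval of -0.45 to 0.50 (limma adjusted p = 0.942).

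Igfbp2 lies 5457 bases from Igfbp5 on chromosome 1 (72824503 to 72852474, plus strand) and was low in all libraries. It had 4.33, 1.01, 0.935 and 34.0 normalised reads in the control replicates and 16.0, 15.4, 10.9 and 0.880 in those labelled knockout, from 1 to 31 reads. A single high library in the control group and a single low one in the other made the groups overlap. Igfbp2 had a log2 difference of 0.78, with a 95% interval of -1.53 to 3.08 (limma adjusted p = 0.616). No difference was detected, and the few reads limit this comparison. The log2 difference of Igfbp2 moved with the settings, to 0.32 and 0.30 when control replicate 2 or 3 was left out. It was 1.52 without knockout replicate 4, 0.13 with edgeR and 0.11 with DESeq2.

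Levels were compared between members only per kilobase of annotated exon, the joined exons of all transcripts, which understates a gene that uses few of them. In the control group the order of the mean levels was Igfbp5 (1785 ± 589 per kilobase, SD, n = 4), Igfbp7 (1753 ± 713), Igfbp6 (1145 ± 337), Igfbp4 (472 ± 123), Igf2r (199 ± 5.32), Igfbp3 (109 ± 23.6), Igf1 (42.7 ± 23.7), Igf1r (24.7 ± 1.64), Igfbp2 (5.44 ± 8.67) and Igf2 (3.24 ± 2.11). Of neighbours in that order, the ranges over the control libraries overlapped for Igfbp5 and Igfbp7, Igfbp7 and Igfbp6, Igf1 and Igf1r, and Igfbp2 and Igf2. In the libraries labelled knockout, Igfbp7 (3295 ± 1297), Igfbp6 (1882 ± 660) and Igfbp5 (1748 ± 159) led with overlapping ranges of neighbours, followed by Igfbp4 (845 ± 266). Igf1 (185 ± 59.2) stood at place 5, beside place 7 in the control group, with a range that overlapped that of Igf2r (175), and Igf2r overlapped Igfbp3 (146). Igf1r (25.7), Igfbp2 (5.83) and Igf2 (1.63) came last, and only the ranges of Igfbp2 and Igf2 overlapped among these.

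The binding protein transcripts were also set out as shares of their summed level per kilobase in a library. Igfbp5 held 33.8 ± 5.70% (SD, n = 4) in the control libraries and 23.3 ± 6.38% in those labelled knockout, and Igfbp7 held 33.0 ± 6.89% and 40.5 ± 6.29%. The groups overlapped for every one of the 6 shares. Igfbp6 held 21.8 ± 2.18% and 23.4 ± 2.42%, Igfbp4 9.15 ± 2.11% and 10.8 ± 2.69%, Igfbp3 2.18 ± 0.71% and 1.94 ± 0.51%, and Igfbp2 at most 0.362% in any library. The summed level itself was 5271 ± 1560 per kilobase (SD, n = 4) and 7922 ± 2166. Set against that sum, the level of Igf1 came to 0.525 to 1.01% in the control libraries and 1.60 to 4.65% in those labelled knockout, a description given with no test.

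**Figure D3:**
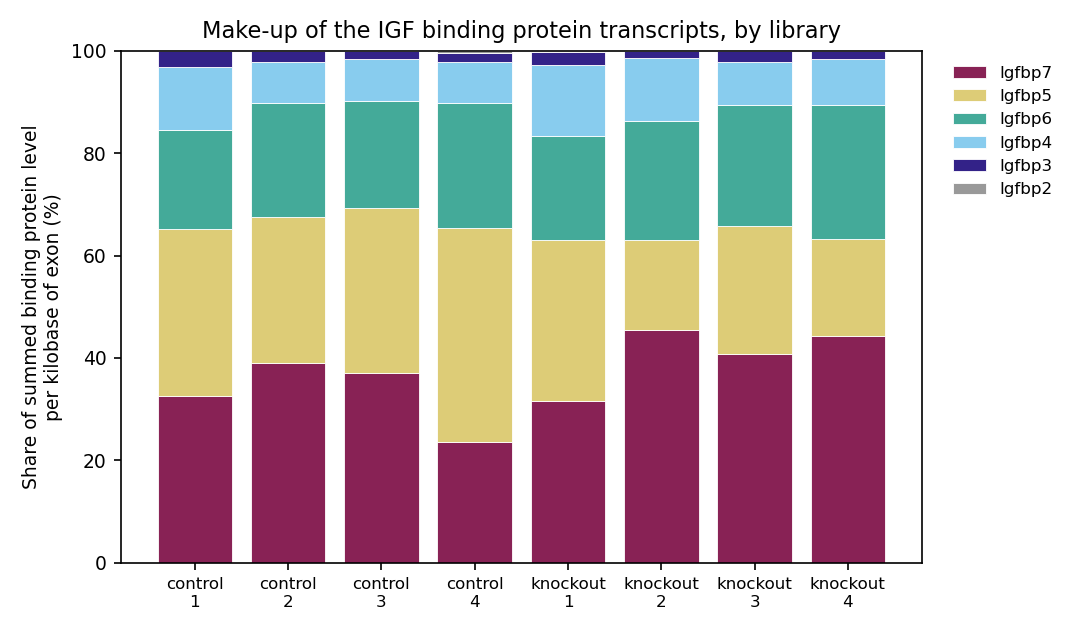
Share of each of the 6 binding protein genes in their summed level per kilobase of exon (vertical axis, percent), 1 bar for each library named by its group label and replicate number. Igfbp7 held 23.6 to 39.1% in the control libraries and 31.6 to 45.5% in those labelled knockout, and Igfbp5 28.4 to 41.8% and 17.5 to 31.5%.

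Within the groups, the members differed in how they followed one another. With group means removed, Igfbp6 and Igfbp7 had a Pearson correlation of 0.83 over the 8 libraries, and Igfbp5 and Igfbp6 had 0.60. Igfbp4 had 0.57 with Igfbp7, 0.54 with Igfbp3 and 0.50 with Igfbp6, and Igf1 had 0.51 with Igf2r. The lowest values were -0.64 for Igfbp2 with Igfbp7, -0.64 for Igf2 with Igfbp2, and -0.62 for Igf1r with Igfbp4. Reads of Igf2 and Igfbp2 were few, which limits the values that hold them. These values share libraries and scaling and are given as a description. The 3 genes outside the family most like Igf1 over the 8 libraries were Prrx2 (Pearson r = 0.995, 94.8 and 411 mean normalised reads), Col8a2 (0.985, 191 and 1092) and Rab27b (0.984, 28.9 and 95.7). For Igf2 they were Repin1 (0.95), Lage3 (0.95) and Hdac9 (0.95), none of which limma called (adjusted p = 0.262, 0.291 and 0.320). A difference between the groups alone gives a high value over 8 libraries in 2 groups.

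Markers of several cell types moved with the group labels, and their part in the values above was not tested unless stated. Limma called 11.6% of all genes tested higher and 11.6% lower, and 38.4% had an unadjusted p under 0.05. Of 11 fibroblast markers, 6 were called higher, and their summed normalised reads ran from 46609 to 136353 in the control libraries and 178787 to 278926 in those labelled knockout. Of 10 macrophage markers, 8 were called higher, with sums of 1998 to 4154 and 6083 to 8228. Of 8 osteoclast markers 7 were called higher (1868 to 14065, and 10270 to 39329), and of 10 osteoblast and osteocyte markers 4 were (1140 to 7640, and 6355 to 13047). Of 10 cartilage markers 1, Hapln1, was called higher (9 had differences above 0), with sums of 3763 to 11540 and 9581 to 13238. Of 15 skeletal muscle markers, 5 were called lower, with sums of 2415801 to 2620420 and 1191004 to 1667657. All 8 tested red cell markers and 10 of 10 neutrophil markers had differences below 0, and limma called 0 of either list, with 8 and 1 at an unadjusted p under 0.05. Their mean sums were 48182 and 16987 for red cells and 3136 and 2066 for neutrophils, control first. With the mean log2 level of the muscle list as a covariate, the difference of Igf1 was 2.40 (limma adjusted p = 0.960) and that of Igfbp4 -0.23 (limma adjusted p = 0.982), in a fit where 83.6% of the variance of that level lay between the groups and 0 genes were called.

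The genes that act on IGFs outside cells were examined next. Of 8 listed, 7 were tested, 1 was called higher and 0 lower, beside 23.2% of all genes called either way. The median log2 difference was 0.94, with 6 genes above 0 and 1 below. Limma had 3 of the 7 at an unadjusted p under 0.05, beside 38.4% of all genes. Adam12, which encodes a membrane metalloprotease able to cut IGFBP-3 and IGFBP-5, had 99.5, 44.4, 105 and 39.4 normalised reads in the control replicates and 522, 369, 299 and 314 in those labelled knockout. The groups were far apart, with a log2 difference of 2.47 and a standard error of 0.34 (limma adjusted p = 0.00397). Of the pappalysin genes, whose proteases cut IGF binding proteins, Pappa had means of 7.87 and 11.7 and Pappa2 of 50.7 and 92.0. Neither pappalysin gene was called (limma adjusted p = 0.411 and 0.437). Igfals, which encodes the partner of IGF and IGFBP-3 in blood, had means of 35.6 and 38.3 (limma adjusted p = 0.714). Htra1 of the same list had means of 2562 and 6084 (log2 difference 1.29), and Stc1 of 13.5 and 27.2 (0.94). Neither was called (limma adjusted p = 0.0657 and 0.0804).

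Of 8 relatives of insulin and receptors for binding proteins, 3 were tested and 2 were called higher, Lrp1 and Tmem219. Among all genes tested, 11.6% were called higher. Lrp1, an endocytic receptor that also binds IGFBP-3, had 3525, 2670, 5040 and 3355 normalised reads in the control replicates and 8366, 8716, 6981 and 11288 in those labelled knockout. These groups did not overlap (log2 difference 1.29, SE 0.20, limma adjusted p = 0.00456). Tmem219, which encodes another receptor for IGFBP-3, had means of 126 and 168 (log2 difference 0.41, limma adjusted p = 0.0424), and its call was lost in 7 of the 8 fits without 1 library, all but that without knockout replicate 3 (adjusted p up to 0.106). The insulin receptor gene Insr had means of 1289 and 1133, with a log2 difference of -0.18 (limma adjusted p = 0.130).

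Downstream of the receptor, 28 of 29 listed signalling genes were tested, and limma called 6 higher and 8 lower, with a median log2 difference of -0.08. Over all genes tested, 11.6% were called in each direction. The 4 with the smallest p were Mtor, Tsc1, Irs2 and Akt1. Irs2 encodes an adaptor that couples the receptor to PI3 kinase, and had 394, 492, 411 and 492 normalised reads in the control replicates and 281, 201, 277 and 284 in those labelled knockout. All libraries labelled knockout were lower (log2 difference -0.78, SE 0.14, limma adjusted p = 0.00707). Akt1, a kinase downstream of PI3 kinase, had 1247, 1231, 1322 and 1232 against 1612, 1588, 1765 and 1936, and was higher in each library labelled knockout (0.45, SE 0.08, limma adjusted p = 0.00784).

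Mtor, the kinase that promotes protein synthesis in response to growth factors, fell from 911 to 638 mean normalised reads (log2 difference -0.51, SE 0.09, limma adjusted p = 0.00581). Tsc1, whose product restrains that kinase, fell from 1030 to 737 (-0.48, SE 0.08, limma adjusted p = 0.00615). The other called genes, outside the naming rule, were Ptpn1, Grb10, Pik3r1, Shc1 and Pik3r2 on the higher side and Rptor, Tsc2, Foxo4, Gsk3b and Akt2 on the lower. The calls of Mtor, Tsc1, Irs2 and Akt1 held in each of the 8 fits without 1 library. Fewer genes of this list were called lower under quantile normalisation (6 higher, 4 lower). The same held with libraries scaled on the genes outside the muscle, red cell and neutrophil lists and the 50 highest (7 higher, 4 lower). Mtor, Tsc1, Irs2 and Akt1 kept their direction and call under both. Under the latter the median of all genes moved to 0.15, and 2740 genes were called higher and 774 lower, beside 1732 and 1729 under the deposited scaling. Quantile normalisation gave 1298 genes called higher and 1274 lower. With the TMM scaling of edgeR, limma called 9 genes higher and 10 lower over all pathway lists, beside 9 and 9 as deposited.

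**Figure D4:**
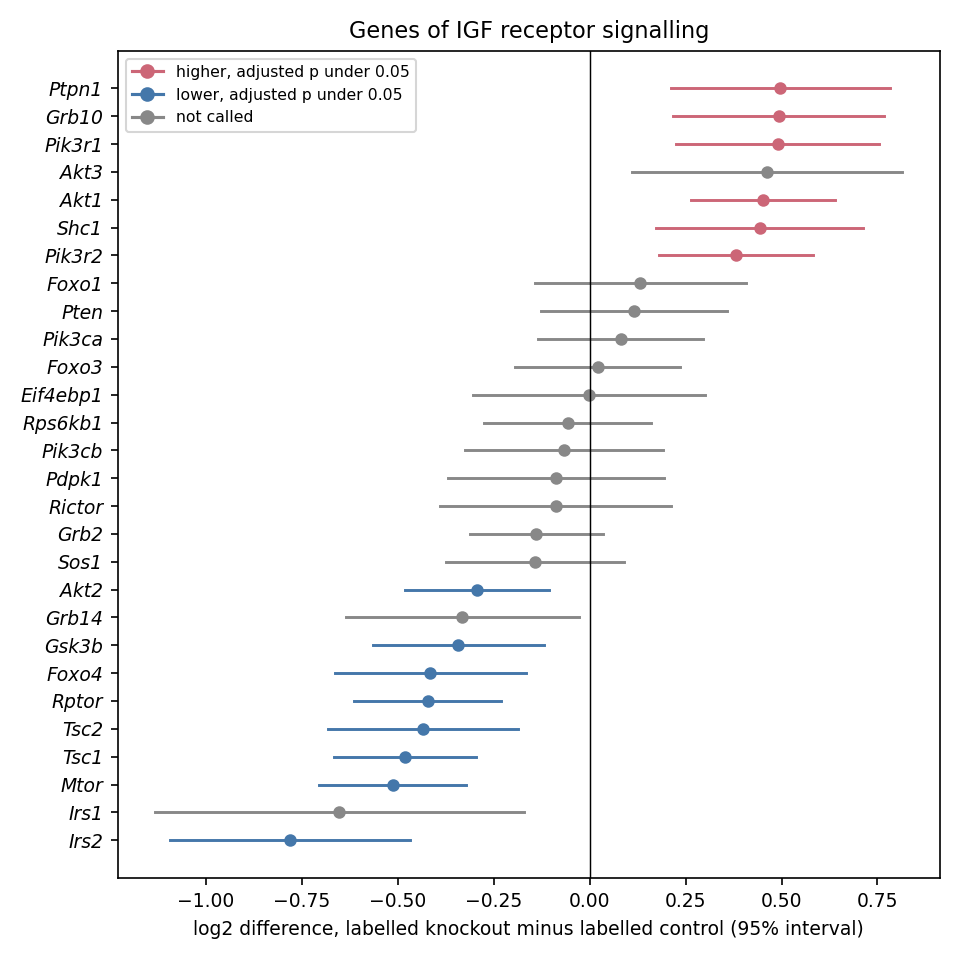
Log2 difference (libraries labelled knockout minus control, horizontal axis) with its 95% interval from limma for the 28 tested genes of IGF receptor signalling, ordered by difference, red where higher and blue where lower at an adjusted p under 0.05. The 6 higher and 8 lower calls run from -0.78 for Irs2 to 0.50 for Ptpn1.

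Of 7 genes of the growth hormone axis, which drives Igf1 transcription in liver, 6 were tested. Limma called 0 higher and 1 lower, edgeR 0 either way, and DESeq2 1 each way. Over all genes these tools called 23.2%, 22.2% and 27.6%. By each tool 2 of the 6 were at an unadjusted p under 0.05, beside 38.4% of all genes with limma. Stat5b, the transcription factor of that axis, had 3744, 4720, 3459 and 3363 normalised reads in the control replicates and 3237, 2581, 3110 and 2439 in those labelled knockout. The log2 difference was -0.42 (SE 0.13, limma adjusted p = 0.0445), and the call was lost without control replicate 1 (0.0759), 2 (0.108) or 4 (0.0537) and without knockout replicate 2 (0.105) or 4 (0.120). With libraries scaled on the genes outside the muscle, red cell and neutrophil lists and the 50 highest it was -0.27 (limma adjusted p = 0.144). Socs2, a feedback inhibitor induced by growth hormone, was singled out after its values were seen; it had means of 302 and 531 with groups that did not overlap, with 0.93 on the log2 scale (limma adjusted p = 0.0576). It missed the threshold with limma and edgeR (adjusted p = 0.0683), and DESeq2 called it higher (adjusted p = 0.0232). The growth hormone receptor gene Ghr had means of 2172 and 1856 (limma adjusted p = 0.145).

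Of 9 genes listed for the Igf2 locus and regulators of its transcript, which include Airn, the antisense of Igf2r, 5 were tested. Limma called 0, with 1 at an unadjusted p under 0.05, while edgeR and DESeq2 each called 1. Of all genes, limma called 23.2%, edgeR 22.2% and DESeq2 27.6%, and limma had 38.4% at an unadjusted p under 0.05. H19, the non-coding RNA imprinted in the opposite sense to Igf2 at the same locus, had 9037, 16348, 5548 and 7352 normalised reads in the control replicates and 5314, 3895, 7250 and 7557 in those labelled knockout. The groups overlapped (log2 difference -0.60, limma adjusted p = 0.193, and -0.31 without control replicate 2), and control replicate 2 was the highest library for H19 as it was for Igf2. Plagl1, a transcription factor gene that is itself imprinted, had means of 45.4 and 96.2 (log2 difference 0.95, limma adjusted p = 0.0589) and was called by edgeR (adjusted p = 0.0464) and DESeq2 (0.0137). Below the filter on low values were Igf2os, Igf2bp1, Plag1 and Hmga2 of this list, Prlr of the growth hormone axis and Insrr of the insulin relatives. Adam28, Igfbp1, Igfbpl1, Ins1, Ins2 and Irs4 had no row of that name in the normalised read counts, so they were not analysed.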

How the data were processed

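Poly-A RNA libraries of 8 knee joints were sequenced. Per the submitters' processing notes and the series text, the authors aligned reads to mm10 with HISAT2, counted them per gene with featureCounts and normalised them with DESeq2. The deposited values are a normalised signal, each gene's read count divided by a size factor of its library. In each column 100% of values were whole multiples (within 0.01) of the smallest, taken as 1 read. In control replicate 2 and knockout replicate 1 that step is close to 1 and could not be checked as in the other columns, so the reads that edgeR and DESeq2 used there are less sure. Versions, annotation, strand and filter values are not given in the sources used here. Of the value columns, 0 were left unmapped.

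Samples were grouped by title. Values were tested as log2 (value + 1) with limma 3.58.1 (trend), 1 group term and Benjamini-Hochberg adjustment over 14949 genes, and called at an adjusted p under 0.05. Alternatives included edgeR 4.0.16 (quasi-likelihood) and DESeq2 1.42.0 on the whole reads. The 2 ratios had two-sided exact permutation tests. Scripts were checked on simulated counts, where 8 of 158 limma calls, 9 of 161 edgeR calls and 33 of 198 DESeq2 calls were false. Positions and exon lengths are from GENCODE M21. All members were named, with at most 4 called genes of smallest p per pathway list, or else the 2 of smallest p. Other genes (such as Pappa, Igfals, Htra1, Stc1, Insr, Ghr and Socs2) were named outside that rule, with their values already seen. Members and lists were chosen with earlier results of these data known.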

Additional observations from a re-analysis of the deposited data

Results flagged for a closer look

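In groups of 4, a library was singled out where its gap to the nearest other library, as a share of the group's range, was above Dixon's 95% critical value. Chance gives this in about 5% of groups, and 58 groups were checked. Igf1 in knockout replicate 1 (2703 normalised reads) stood above the other libraries of its group (1440 to 1588). Igfbp2 in control replicate 4 (34.0 normalised reads) stood above the other control libraries (0.935 to 4.33), and so did its share of the binding protein level there (0.362%). The share of Igfbp4 in control replicate 1 was 12.3%, above 8.00 to 8.17% in the other control libraries. Irs2 in knockout replicate 2 (201 normalised reads) lay below the others of its group (277 to 284). Loxl2 in control replicate 3 (1135 normalised reads) stood above the other control libraries (282 to 349).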

How the results depend on the processing

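Limma called 3461 genes, 2 members and 18 pathway genes. Under the replicate block, which takes the replicate number as a term, the counts were 2018, 1 and 9, and Igfbp4 was not called (limma adjusted p = 0.0991). The numbers are not stated to pair the samples, and deviations of same-numbered libraries correlated at 0.21, -0.12, -0.23 and -0.06. With the muscle list as covariate they were 0, 0 and 0 (limma), with 692 genes at an unadjusted p under 0.05. Leaving out 1 library gave 1740 to 3832 genes, 1 to 4 members and 9 to 20 pathway genes. The gene count moved by over 1.5 times without knockout replicate 4 (1740) or control replicate 2 (1909) or 4 (2209). Members called were 5 with libraries scaled on the genes outside the muscle, red cell and neutrophil lists and the 50 highest (23.4% of all genes called) and 4 with DESeq2. These 5 were Igf1, Igfbp3, Igfbp4, Igfbp6 and Igfbp7, and DESeq2 called all of these but Igfbp3.

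The Igf2 to Igf1 ratio differed by -3.03 under the replicate block, where the exact p of 0.125 is the smallest possible, and by -3.40 to -2.66 without 1 library. The Igf2r to Igf1r ratio differed by -0.32 to -0.13 without 1 library, past the test only without knockout replicate 2 (exact permutation p = 0.0286). Signs turned with the muscle covariate for Igfbp3 (-0.10), Igfbp4 (-0.23), Igfbp5 (-0.61), Igfbp6 (-0.34) and Stat5b (0.19). The difference of Igfbp5, near 0, was -0.0206 with edgeR and -0.0224 with DESeq2, and -0.15 to 0.20 without 1 library. The group difference in share, in percentage points, was -0.0598 (without control replicate 3) to 0.0585 (without control replicate 4) for Igfbp2 and -0.45 to 0.10 for Igfbp3 without 1 library, and 0.0554 for Igfbp3 without length scaling. Without length scaling that of Igfbp4 was 4.84, beside 1.64. Without 1 library it ran from 0.61 (without knockout replicate 1) to 2.70 (without control replicate 1), and that of Igfbp6 from 0.70 (without knockout replicate 4) to 2.67 (without knockout replicate 1), beside 1.64. The cause of these changes was not tested. Igf1 kept its direction in all 18 alternatives and its call in all but the muscle covariate. Low reads limit Igf2 and Igfbp2.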
